A study of Homo sapiens with 2 samples.

Results

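The peaks described here mark H4R3me2a, histone H4 carrying an asymmetric dimethyl group on arginine 3, and lie in CpG-island sequence away from annotated gene starts. A peak of the deposited list entered the set if its summit lay more than 1 kb from every transcription start site of a protein-coding or long non-coding RNA (lncRNA) gene. The summit and the 200 bp on each side of it also had to hold at least 60% G and C and a CpG observed to expected ratio (o/e) of at least 0.6, the count of CpG dinucleotides over that given by the C and G content. Of 33349 peaks on chromosomes 1 to 22 and X, 811 met these conditions (2.43%, 95% exact interval 2.27 to 2.60%). They came from 22303 peaks more than 1 kb from a start site, of which they made up 3.64% (3.39 to 3.89%). The rule used sequence and annotation, not the signal.

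The study compared 1 immunoprecipitation library made with an H4R3me2a antibody and 1 library of input DNA. Both came from HCT116, an established human colorectal carcinoma line grown under standard conditions and given no drug, with no genetic change named for either library. Chromatin was fixed with formaldehyde and sheared by sonication, and fragments were sequenced from both ends. With 1 library of each kind there is no replicate check, and each interval given covers counting error only. The intervals take each peak as an independent count. Of the set, 260 peaks (32.1%) had another summit within 1 kb, so the intervals can be too narrow. A peak list holds no measure of RNA, so the labelled cell type was not checked against markers, and neither transcription nor DNA methylation was measured.

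CpG islands are stretches in which CpG dinucleotides have not been depleted as they have in most of the vertebrate genome, where methylated cytosine is prone to mutate. Most lie at promoters, and those that lie elsewhere, inside or between genes, are called orphan islands. Orphan islands can act as promoters of unannotated or tissue-specific transcripts, and many gain DNA methylation in colorectal cancer. H4R3me2a is written mainly by the methyltransferase PRMT1 and is counted among the marks of active chromatin.

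Sequence of 6 of these peaks shows the range of the set. Each run below is 300 bp around the summit on the plus strand of GRCh38, with CpG dinucleotides in capitals, from a summit in sequence that occurs once in the genome. Peaks near a UTR, in a tandem repeat or within 1 kb of a RefSeq start were passed over, the latter 2 conditions having been set after the data were seen. The peaks were chosen as those of highest fold among the eligible peaks in intergenic, intronic and coding sequence, the one with most CpGs, the one in the longest island with no part near a start site, and the one closest to the lower o/e limit.
Intergenic, neighbour GNG8 (chr19:46639433-46639732): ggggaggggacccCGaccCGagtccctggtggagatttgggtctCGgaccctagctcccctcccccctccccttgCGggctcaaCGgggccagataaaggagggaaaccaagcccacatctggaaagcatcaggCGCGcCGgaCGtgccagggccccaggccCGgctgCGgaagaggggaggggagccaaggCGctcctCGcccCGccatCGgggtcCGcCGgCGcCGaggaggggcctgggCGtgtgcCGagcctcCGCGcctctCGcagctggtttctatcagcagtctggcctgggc
NUFIP2 intron (chr17:29292625-29292924): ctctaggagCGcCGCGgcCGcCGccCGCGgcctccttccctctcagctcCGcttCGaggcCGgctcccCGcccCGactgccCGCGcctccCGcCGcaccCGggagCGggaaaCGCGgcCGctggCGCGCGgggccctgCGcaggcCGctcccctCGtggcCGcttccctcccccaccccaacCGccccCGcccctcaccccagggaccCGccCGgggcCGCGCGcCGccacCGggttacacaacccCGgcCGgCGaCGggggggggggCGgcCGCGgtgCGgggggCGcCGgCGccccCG
VGF coding sequence (chr7:101163728-101164027): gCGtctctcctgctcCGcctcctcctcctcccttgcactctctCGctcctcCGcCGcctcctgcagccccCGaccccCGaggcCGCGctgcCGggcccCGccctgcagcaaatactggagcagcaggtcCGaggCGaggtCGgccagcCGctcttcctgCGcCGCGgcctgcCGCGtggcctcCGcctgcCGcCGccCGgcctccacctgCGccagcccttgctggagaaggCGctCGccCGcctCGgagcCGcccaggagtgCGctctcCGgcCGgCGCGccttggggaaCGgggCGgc
AJM1 coding sequence (chr9:136846953-136847252): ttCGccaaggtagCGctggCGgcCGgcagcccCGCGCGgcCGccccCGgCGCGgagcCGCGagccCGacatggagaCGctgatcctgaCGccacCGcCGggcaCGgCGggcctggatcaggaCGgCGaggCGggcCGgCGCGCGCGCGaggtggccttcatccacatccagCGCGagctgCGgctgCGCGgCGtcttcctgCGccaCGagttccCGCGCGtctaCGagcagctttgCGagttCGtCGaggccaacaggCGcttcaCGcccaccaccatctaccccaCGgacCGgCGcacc
APC2 coding sequence (chr19:1465605-1465904): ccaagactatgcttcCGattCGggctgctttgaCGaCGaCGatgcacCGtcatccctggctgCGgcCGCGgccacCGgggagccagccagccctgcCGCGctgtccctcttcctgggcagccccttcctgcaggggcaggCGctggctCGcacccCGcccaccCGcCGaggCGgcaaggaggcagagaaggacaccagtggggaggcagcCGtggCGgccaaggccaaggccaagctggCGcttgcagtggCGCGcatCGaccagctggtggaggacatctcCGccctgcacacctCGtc
RERE coding sequence (chr1:8358394-8358693): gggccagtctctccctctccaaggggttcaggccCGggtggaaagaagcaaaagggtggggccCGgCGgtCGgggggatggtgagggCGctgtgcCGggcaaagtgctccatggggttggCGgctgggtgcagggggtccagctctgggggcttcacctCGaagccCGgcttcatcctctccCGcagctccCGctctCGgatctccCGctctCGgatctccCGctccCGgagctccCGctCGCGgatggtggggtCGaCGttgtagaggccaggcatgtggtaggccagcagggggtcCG
The intergenic run, with GNG8 as the nearest protein-coding start, holds 24 CpGs at 71.3% GC. The NUFIP2 run is 84.0% GC and holds 49 CpGs, and the AJM1 run holds as many at 74.3% GC. The VGF run has 37 CpGs, the APC2 run 26 and the RERE run 22. The RERE peak had an o/e of 0.6004 over the full window, and the AJM1 peak, with 65 CpGs in that window, had an o/e of 1.17.

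GC and CpG content were highest beside the summit, where the rule set them. In the 50 bp directly before the summit the mean was 70.1% GC and 9.27 CpGs per 100 bp, and about 1 kb further out on that side it was 57.8% and 4.23. Peaks in CpG-island sequence within 1 kb of a start site, here called start-site island peaks, numbered 3001. They reached 71.8% GC and 10.3 CpGs per 100 bp in the same bin. At 475 bp before the summit they were still above the orphan peaks, with 63.1 against 61.6% GC and 7.30 against 5.70 CpGs, and at 1475 bp below them, with 50.4 against 55.5% GC and 2.66 against 3.43 CpGs. Another group, here called CpG-poor peaks, held the 7985 other peaks away from start sites with at least 60% GC but an o/e under 0.6. At 1475 bp these had 57.3% GC, near that of the orphan peaks, but fewer CpGs, with 2.82 per 100 bp there and at 475 bp.

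**Figure D1:**
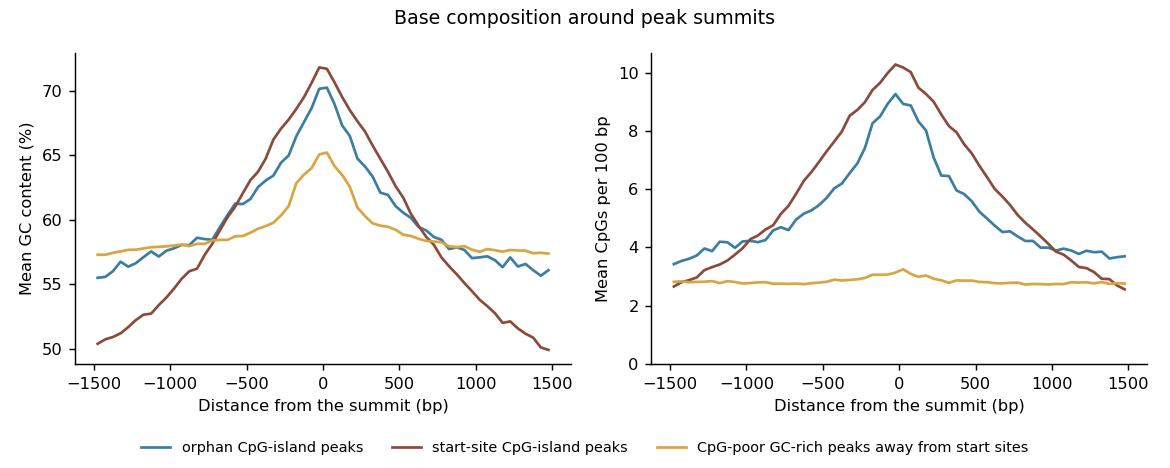
Mean GC content (left, percent) and CpG dinucleotides per 100 bp (right) against distance from the summit in base pairs, in 50 bp bins, for 811 orphan CpG-island peaks, 3001 start-site island peaks and 7985 CpG-poor peaks away from start sites. Selection was on the central 200 bp to each side, so the central rise is set by the rule. The orphan peaks lie below the start-site island peaks at 475 bp before the summit and above them at 1475 bp.

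Values on either side of each limit of the rule are given as a description. The median fold of the 187 peaks with an o/e of 0.6 to 0.65 was 4.21, and that of 267 peaks of the same GC with an o/e of 0.55 to 0.6 was 4.09. The 79 peaks of 60 to 62% GC had a median fold of 4.23, and 56 of 58 to 60% GC had 4.06. The 65 peaks with summits 1 to 1.2 kb from a start site had 4.34, and 137 in island sequence at 0.8 to 1 kb had 4.56. The peaks just inside and just outside stood at 60.1 and 59.9% GC, at an o/e of 0.6004 and 0.5999, and at 1012 and 1000 bp.

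Orphan CpG-island sequence was counted over each position of the genome by the same rule. It made up 6.24 Mb, or 0.214% of sequence that is not N, and held 130 peaks per Mb (121 to 139), against 11.5 per Mb over all sequence. Much of it is repeated: of 6237 positions sampled at a fixed step, 32.4% lay in sequence that matches elsewhere in the genome, while 19 of the 811 peaks (2.34%, 1.42 to 3.63%) did. Tandem repeats also made up 11.2% of the sampled positions and 3.58% of the peaks. No source read here states how reads with several matches were treated, and the part of mapping in the shortage of peaks in repeated sequence was not tested. Unless stated otherwise, densities below are therefore given over single-copy sequence, where the median count of exact genome matches of the 32-mers across the site is 1. That choice was planned for the overall density and extended to classes, composition, distance and chromosomes after the data were seen.

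In single-copy sequence the orphan islands held 188 peaks per Mb (175 to 201.35). Start-site island sequence held 224 (216 to 232), a ratio of 0.837 (0.773 to 0.906), larger than counting error. Without the limit to single-copy sequence the ratio was 0.609 (0.563 to 0.658). CpG-poor sequence of at least 60% GC away from start sites held 242 peaks per Mb (237 to 247), and orphan islands were at 0.777 of this (0.721 to 0.836). Pooled over annotation classes, orphan islands thus held fewer peaks per Mb than both kinds of sequence, by more than counting error. Against start-site islands this did not hold for each class: coding orphan islands held 275 (241 to 312), above the start-site value. Intervals of UTR and non-coding exon islands included that value, and those of intronic (176, 155 to 199) and intergenic islands (126, 108 to 147) lay below it. By distance, density was near it at 1 to 5 kb (229 and 219) and below it beyond 10 kb (153 and 52.1).

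At 60 to 70% GC, density was lower at high than at low CpG content. Away from start sites, single-copy sequence of 60 to 65% GC held 229 peaks per Mb (221 to 237) at an o/e of 0.2 to 0.4. It held 182 (170 to 194) at 0.4 to 0.6, 151 (130 to 175) at 0.6 to 0.8 and 99.98 (68.4 to 141) at 0.8 to 1, and of these 3 bins the neighbouring intervals overlap. Sequence of 65 to 70% GC ran from 384 (363 to 406) at 0.2 to 0.4 through 301 (279 to 325) and 234 (205 to 266) to 155 (117 to 201.35) in the same bins. Sequence of 70 to 75% GC held 280 (235 to 332) at 0.6 to 0.8 and 228 (179 to 286) at 0.8 to 1, whose intervals overlap each other and that of 271 (225 to 324) at 0.4 to 0.6. At this GC content no fall was resolved over these 3 bins. The bin at 0.2 to 0.4 held 368 (273 to 485), which overlaps them too. The bin at 1 or more held 94.9 (34.8 to 207) from 6 peaks, with its interval below those at 0.4 to 0.6 and 0.6 to 0.8. Sequence of 75% GC or more held 236 (144 to 365) at 0.6 to 0.8 and 212 (150 to 291) at 0.8 to 1, which also overlap. Within 1 kb of start sites the density at 0.8 to 1 was below that at 0.6 to 0.8, with 294 (271 to 318) and 192 (171 to 216) at 65 to 70% GC. Over all orphan islands the single-copy density was 206 at an o/e of 0.6 to 0.8 (189 to 223), 169 at 0.8 to 1 (146 to 194) and 84.2 at 1 or more (52.8 to 127). The last rested on 22 peaks.

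**Figure D2:**
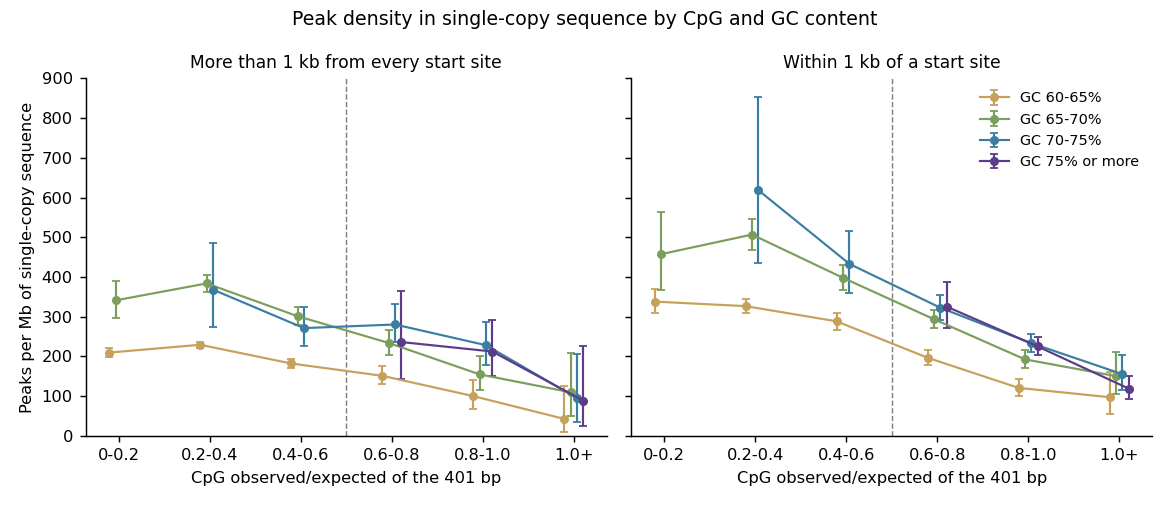
Peaks per Mb of single-copy sequence against CpG o/e in the 200 bp to each side, by GC content, more than 1 kb from start sites (left) and within 1 kb (right); bars are 95% exact counting intervals, the dashed line marks the limit of 0.6, and points over less than 0.04 Mb are left out. At 65 to 70% GC away from start sites the density is 384 at 0.2 to 0.4 and 155 at 0.8 to 1.

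The values the authors' caller gave the orphan peaks were close to those of the whole list, whose median pileup was 10 and median fold 4.18. The pileup, the signal at the summit in fragments, had a median of 10 and ran from 5 to 23. The fold, the pileup over the local background, had a median of 4.21 (4.14 to 4.26) and ran from 2.37 to 10.4. The width had a median of 198 bp (191 to 205) and a range of 126 to 1001 bp. In 39 peaks the -log10 q reached 5 (4.81%, 3.44 to 6.52%), against 3.84% of all peaks on these chromosomes. In 33 the fold reached 6 (4.07%, 2.82 to 5.67%), against 3.51% of all. Both shares lie near those of the whole list. A fold of 6 was reached by 9.53% of peaks in CpG-island sequence near start sites (8.50 to 10.6%) and by 2.79% of CpG-poor peaks (2.44 to 3.18%).

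Start-site island peaks had a higher median fold, 4.49 (4.45 to 4.54), and were wider, 221 bp (215 to 226), but their median pileup was lower at 9 fragments. Their recovered background was lower too, with a median of 1.10 fragments against 1.56 for the orphan peaks and 2.05 for CpG-poor peaks. Among the orphan peaks fold fell as background rose (Pearson r -0.46), a relation partly built in, since the background was computed from the fold. At matched background the median folds were close: 4.67 for orphan and 4.71 for start-site island peaks where it was under 0.8, and 4.34 for both at 1.4 to 1.8. The widths were not: start-site island peaks had medians of 221 bp against 171 for orphan peaks under 0.8. At 1.4 to 1.8 these were 225.5 and 191.5 bp. Over the 811 orphan peaks CpG o/e and pileup were almost unrelated, with a Pearson r of -0.10 and a Spearman rho of -0.09, given as a description of peaks of 1 library.

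Orphan island peaks were commonest in introns, coding sequence and between genes. Each summit had 1 class, taken first as UTR, then coding, then non-coding exon, then intron and last intergenic, with exons of non-coding transcripts of coding genes counted as intron. Introns held 269 peaks (33.2%), coding sequence 241 (29.7%), intergenic sequence 177 (21.8%), 3' UTRs 77 (9.49%), non-coding exons 41 (5.06%) and 5' UTRs 6. Of the orphan island sequence itself 14.8% is coding and 34.5% intergenic.

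Coding and 3' UTR islands had the highest densities of the larger classes. In single-copy sequence there were 275 peaks per Mb of coding orphan islands (241 to 312), 262 of 3' UTR islands (207 to 327), 176 of intronic (155 to 199) and 126 of intergenic ones (108 to 147). Coding exceeded intergenic islands 2.17 times (1.78 to 2.66) and intronic islands 1.56 times (1.30 to 1.87). The interval of non-coding exons, 133 to 252 around 186, overlapped those of each of the other classes. Set against CpG-poor GC-rich sequence of the same annotation, the ratio was 0.835 in coding sequence (0.719 to 0.966), 0.710 in introns (0.624 to 0.806) and 0.675 in intergenic sequence (0.574 to 0.791). For the other classes the ratio was computed over all sequence, repeated sequence included. It was 0.736 in 3' UTRs (0.574 to 0.932), 0.715 in non-coding exons (0.496 to 1.01) and 0.780 in 5' UTRs (0.268 to 1.88), and the intervals of the latter pair include 1.

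**Figure D3:**
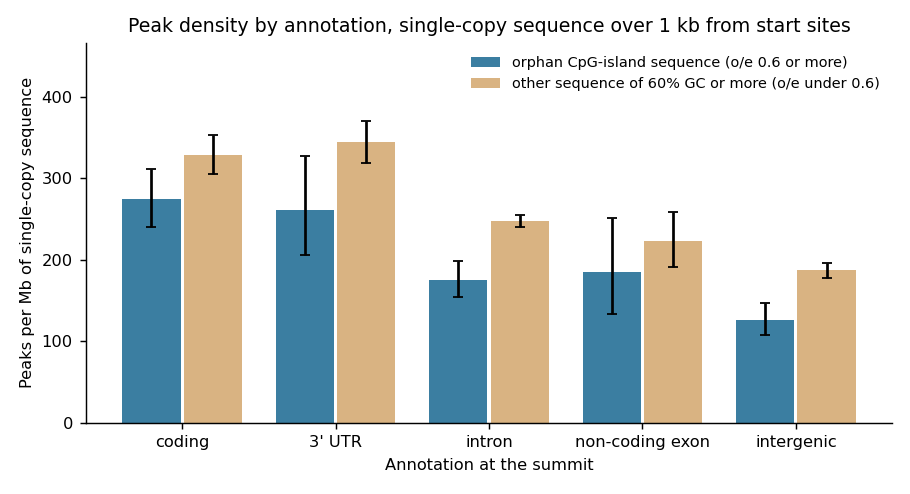
Peaks per Mb of single-copy sequence more than 1 kb from start sites, by annotation at the summit, in orphan CpG-island sequence and in other sequence of at least 60% GC; bars are 95% exact counting intervals. Coding islands stand at 275 and intergenic islands at 126, with CpG-poor bars of 329 and 187 beside them.

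The fold did not follow this order, with medians of 4.21 in coding, 4.21 in intronic, 4.17 in 3' UTR and 4.14 in intergenic islands, whose intervals overlap. Pileup and background were higher in coding islands, with medians of 11 and 1.86 fragments against 9 and 1.43 between genes. Coding peaks were also the widest, at a median of 223 bp (203 to 250) against 189 (174 to 210).

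Density fell with distance from the nearest start site. In single-copy sequence it was 229 peaks per Mb at 1 to 2 kb (200.7 to 261), 219 at 2 to 5 kb (192 to 250) and 198 at 5 to 10 kb (167 to 233), whose intervals overlap. It was 153 at 10 to 50 kb (131 to 178) and 52.1 beyond 50 kb (30.3 to 83.4), a bin of 17 single-copy peaks. The share of peaks in intergenic sequence rose over the same bins from 8.55% to 66.7%, and the 2 trends were not separated. Of peaks 1 to 3 kb from a canonical start site, 131 lay downstream and 39 upstream. Per Mb of orphan island sequence, repeated sequence included, these were 234 and 178, a ratio of 1.31 whose interval (0.911 to 1.93) includes 1. Another gene type, such as a pseudogene or microRNA, had a start within 1 kb of 39 peaks, and a RefSeq start lay within 1 kb of 30 of the 770 peaks on the chromosomes in the RefSeq table used.

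Islands were delimited as runs of positions that met the composition rule, with gaps of up to 100 bp joined. The 811 peaks fell into 752 islands, of which 47 held 2 or more and 1 held 5. The islands had a median length of 753 bp by peak (quartiles 400 and 1301.5 bp) and reached 6087 bp. In 155 cases (19.1%, 16.5 to 21.99%) the island extended to within 1 kb of a start site, so that the peak lay in an island shared with a start site. The other 656 peaks lay in 610 islands with no part that close. Longer islands held a summit of any kind more often: of islands with no part near a start site, 0.752% under 200 bp, 8.40% from 500 bp to under 1000 bp and 19.7% of 2000 bp or more (13.3 to 27.5%) did. Per Mb of island, though, the same classes held 104, 128 and 112 summits, so that the rise went with the length scanned. Islands that reached a start site held one more often in each of the 5 length classes, with 14.1% and 39.0% (34.9 to 43.2%) in the latter pair, which is 200.87 and 219.7 summits per Mb. These shares and densities include repeated islands and, for islands at start sites, peaks within 1 kb.

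**Figure D4:**
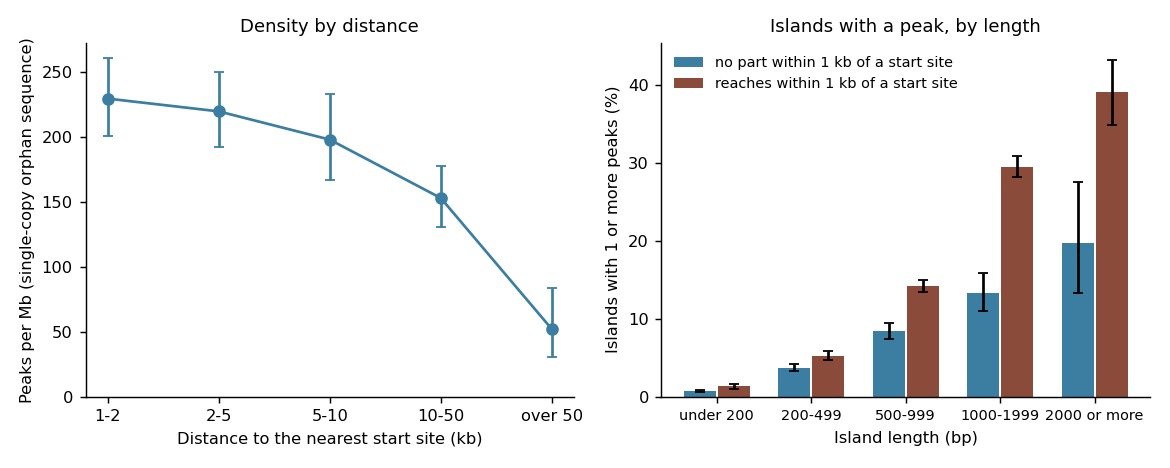
Left, orphan island peaks per Mb of single-copy sequence by distance to the nearest start site in kb; right, percent of islands with 1 or more peaks by island length in bp, for islands with and without a part within 1 kb of a start site; bars are 95% exact intervals. Single-copy density falls from 229 at 1 to 2 kb to 52.1 beyond 50 kb, and islands that reach a start site are higher in each length class.

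Of the 811 peaks, 563 lay in the span of a protein-coding gene, 53 in a lncRNA gene alone and 195 in neither. Counting overlapping genes each time, 510 of 19970 protein-coding genes (2.55%) held 1 or more, and among the 5585 genes with orphan island sequence 9.13% did. Peaks leaned to the ends of their host genes, with 192 of the 563 (34.1%) in the last 20% of the span and 93 (16.5%) in the first 20%. The rule removed summits within 1 kb of any start site, and with them part of the start of each host gene. Orphan sequence was not apportioned along the gene either, so these shares describe the peaks alone. Of 232 coding peaks in an exon of the canonical transcript, 126 lay in its last exon. These exons were long, with a median of 1561.5 bp, and 149 of the peaks lay in exons of 1000 bp or more.

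In PLEC and APC2, the genes with most peaks, most of them lay in long exons at the end of the gene. PLEC, which encodes the cytolinker plectin, held 7 peaks (chromosome 8, 143916601 to 143935172), 5 of them in its last pair of exons, numbers 31 and 32, of 3381 and 7243 bp. Their folds were 3.46 and 4.28 in exon 32 and 4.08, 3.72 and 4.41 in exon 31, with pileups of 13, 18, 17, 16 and 20. The recovered background there was 3.05 to 3.76 fragments, above the median of 1.56 for orphan peaks. APC2, a relative of the tumour suppressor APC, held 6 (chromosome 19, 1455113 to 1470391), 1 in exon 5 and 5 in the last exon, number 15, which is 8090 bp long. The 5 in the last exon had folds of 5.77, 4.33, 4.58, 4.41 and 4.07 and shared the longest orphan island that held a peak, 6087 bp. The C19orf25 gene overlaps this exon, so the same 5 peaks counted for both genes.

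PITX1, a homeodomain factor of hindlimb and pituitary, held 3 peaks in its last exon (chromosome 5, 135028231 to 135029252), where the folds read 3.28, 5.35 and 3.28 over pileups of 9, 11 and 9. Other genes with 3 peaks differed. Those of ZNF703 and CCDC177 lay in the last exon, those of WNT11 in introns, and those of KISS1R and KDM2B in introns and exons. Neighbouring peaks of 1 exon share fragments' local background and are not independent sites. Over the set, 53 pairs of orphan peaks lay within 1 kb of each other, and 260 peaks (32.1%) had another summit of any kind within 1 kb.

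The highest fold, 10.4 from a pileup of 20, was at chromosome 1, 16699589 to 16699908, in an intron of ESPNP, an espin pseudogene, where the sequence occurs in 2 copies and a RefSeq start lies 278 bp away. Next came an intron of AGO2, the slicer of RNA interference (chromosome 8, 140634209 to 140634475, fold 8.44, pileup 17, 1185 bp from a start site). The intergenic peak with GNG8 as its neighbour (chromosome 19, 46639496 to 46639931) had a fold of 8.40 and a pileup of 16, and its summit lay 422 bp from the start of a gene model that awaits experimental proof. SRF, the serum response factor, followed with 7.90 from 15 fragments in its first intron (chromosome 6, 43171994 to 43172469), 14 bp from a RefSeq start. These 4 stood above the remaining 6 of the 10, whose folds were 7.01 to 7.37.

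Those 6 were at an intron of ARMH3 (7.37, in sequence with a median of 71 copies), an intergenic site 19 bp from the start of the processed pseudogene FOXO1B (7.36, neighbour OR2V1), and the 3' UTR of HAPLN2 (7.18). The others were the first intron of NUFIP2, an RNA-binding protein (7.07), an intergenic site 143725 bp from its neighbour GRK3 (7.07) and the last exon of TMEM275 (7.01). The NUFIP2 and GRK3 peaks each had 11 fragments over the lowest background recovered for an orphan peak, 0.697.

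The widest orphan peak, 1001 bp, lay in the last exon of ZFP36L2, an RNA-binding protein of mRNA decay (chromosome 2, 43224812 to 43225812, fold 5.97). It was followed by peaks of 956 bp in an intron of SBNO2, 896 bp in AGAP1, 894 bp with PIM3 as neighbour and 840 bp in the single exon of EPOP, a partner of elongin and Polycomb. The highest pileups were 23 fragments in a coding exon of TBC1D16 and 22 in the 3' UTR of PARP10. They rested on backgrounds of 4.61 and 8.71 fragments, so their folds were 4.28 and 2.37, the latter the lowest of the set. ESPNP, IL17C and PLEC followed with 20 each.

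The 5 peaks farthest from a start site had pileups of 6 to 10 fragments, at or below the median of 10. The most distant lay 177 kb away on chromosome 16 (34803035 to 34803291, pileup 6, fold 4.09), and the next 151 kb away on chromosome 10, also with 6 fragments. The nearest protein-coding start to the chromosome 10 peak was that of PPP2R2D, 275430 bp away. A pair on chromosome 17 with KCNJ18 as neighbour shared an island of 2535 bp, with pileups of 8 and 10, folds of 4.72 and 5.43 and o/e values of 1.21 and 1.31. The fifth, with MED14 as neighbour on chromosome X, had 8 fragments in a tandem repeat present in 6 copies.

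Genes of CpG methylation and of proteins that bind CpG islands held orphan peaks in 7 of 42 cases, and 7 of the 19 with orphan island sequence (36.8%, 16.3 to 61.6%, against 9.13% of protein-coding genes with such sequence). The highest folds were at BCORL1 and BCOR, of a Polycomb complex (5.89 and 4.71, pileups 9 and 7), KDM2B, a demethylase that binds unmethylated CpG (5.32, pileup 13), and the de novo methyltransferase DNMT3A (5.14, pileup 11). DNMT1, UHRF1 and SETD1B held 1 each. These 7 genes have 703 to 16444 bp of orphan island sequence each, and the 9.13% is not matched for its amount. Among protein-coding genes the share with a peak was 3.17% under 500 bp and 16.8% from 500 bp to under 2000 bp. It was 32.7% at 2000 bp or more. The interval of the list, 16.3 to 61.6%, includes the latter pair. Per Mb of such sequence, repeated sequence included, the list had 306 orphan peaks (140 to 581) against 181 (166 to 196) for protein-coding genes, and these intervals overlap.

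Developmental transcription factors with an orphan peak were 17 of 151, or 11.3%, against 2.55% of protein-coding genes. Of the 111 with orphan island sequence they were 15.3% (9.18 to 23.4%), against 9.13% of protein-coding genes with such sequence. Their density was 196 peaks per Mb (124 to 294), close to that of protein-coding genes, and they hold more such sequence each, with a median of 861 bp against 341. DLX2 was highest (fold 6.70 in its 3' UTR), then LHX3 (5.85), PAX2 (5.63) and PRDM16 (5.59). HOXB7 and HOXB9 were counted for the same peak, where their spans overlap.

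Genes known for promoter methylation in colorectal cancer held orphan peaks in 4 of 52 cases, and of 26 with orphan sequence 15.4% did (4.36 to 34.9%). They were RUNX3 (fold 5.43), SOX17 (4.34), HIC1 (4.21) and GATA4 (3.35), and SOX17 and GATA4 are also among the developmental factors. Imprinted genes had 2 of 23 with sequence, RB1 (4.42) in a non-coding exon and TP73 (4.38) in its 3' UTR. The arginine methylation genes had none, but 5 of the 19 have 1.195 kb of orphan island sequence in all, in which a count of 0 says little. The clustered protocadherins, cell adhesion genes whose variable exons each form an island, also had none in 26.7 kb of orphan island sequence, repeated sequence included. That allows up to 112 peaks per Mb by 3 counts and 138 by the exact 95% interval. The lists were described by counts, and none is called particular.

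Density differed between chromosomes. In single-copy orphan island sequence it was highest on chromosome 19 at 339 peaks per Mb (286 to 398), then chromosomes 17 at 312 (249 to 387), 22 at 285 (199 to 394) and 16 at 264 (198 to 346), whose intervals overlap. It was lowest on X at 56.1 (20.6 to 122, 6 peaks), 18 at 81.1 (35.01 to 160) and 3 at 105 (55.9 to 179). Chromosome 19 held orphan peaks more densely than start-site island peaks, with a ratio of 1.33 (1.08 to 1.64), but over all sequence the ratio was 1.10 (0.893 to 1.36), which includes 1. On chromosomes 2, 3, 4, 5, 7, 14 and 18 the single-copy ratio lay below 1 with its interval. Over all sequence this held for chromosomes 1 to 12, 14, 17, 18 and 21. Over the 23 chromosomes the densities of orphan and start-site islands had a Pearson r of 0.73 and a Spearman rho of 0.68, as a description, since they come from the same library pair. The numbers of DNA copies of each chromosome in these cells were not used, and their part in these values was not tested. The median background of the orphan peaks also varied: it was 0.778 on X, 2.30 on 17, 1.62 on 19 and 2.79 on chromosome 8.

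**Figure D5:**
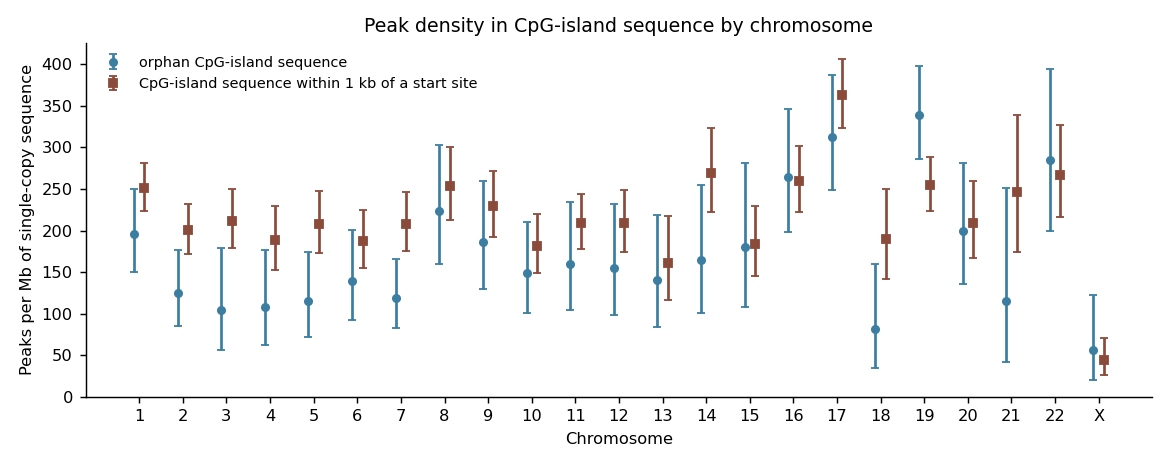
Peaks per Mb of single-copy CpG-island sequence on each chromosome, for orphan islands (circles) and for sequence within 1 kb of a start site (squares); bars are 95% exact counting intervals. Orphan density is highest on chromosome 19 at 339 and lowest on X at 56.1.

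The terminal 5 Mb of chromosomes held 310 of the orphan peaks (38.2%, 34.9 to 41.7%), against 20.6% of start-site island peaks. Of orphan island sequence, 31.3% lies there. The share of start-site island sequence there was not counted, so these shares of peaks do not compare densities. In single-copy sequence the terminal density was 225 per Mb against 170 elsewhere, a ratio of 1.32 (1.14 to 1.53).

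In all, 10 short motifs were searched on both strands in the window around each summit. The GC box of SP and KLF factors (GGGCGG) was found in 69.1% of orphan peaks (65.7 to 72.2%) and in 63.2% of windows of this length at each position of orphan island sequence. The E-box (CACGTG) was in 15.2% (12.8 to 17.8%) against 10.3%, and in 7.56% of start-site island peaks against 9.55% of their sequence. The ETS motif (CCGGAAG) was in 8.63% (6.79 to 10.8%) against 6.81%, within counting error. The cyclic AMP response element (TGACGTCA) was in none, which allows up to 0.454%, against 0.401%. The NRF1 motif was in 0.123% (0.0031 to 0.685%), or 1 peak, against 0.788%, below it by more than counting error. The other 5 motifs matched under 1% of the orphan peaks. In start-site island peaks the GC box ran the other way, with 78.9% (77.4 to 80.3%) against 81.6% of their sequence. The windows over sequence included repeated sequence and were not matched to the peaks for GC or CpG content. The part of base composition in these differences was not tested, and a match says nothing on binding.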

How the data were processed

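Peaks were called for 1 H4R3me2a library against 1 input library of HCT116 cells, aligned to GRCh38, with Bowtie2, MACS2 and deepTools named in the submitters' processing notes; no source read here gives versions, settings or read depth. The deposited table gives, per the file headers, the pileup signal at the summit, the fold ratio over background, −log10 p and −log10 q, all the authors' own values from their peak caller, and they serve here as descriptions of single peaks. The background was recovered as (pileup + 1) / fold − 1.

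Start sites, exons and gene spans came from GENCODE release 44, and RefSeq starts from a table for GRCh38. GC and CpG content were counted over 200 bp to each side of each summit and each genome position. Copies were the median exact matches, on both strands, of 5 adjacent 32-mers (160 bp). The single-copy share of sequence was taken from positions sampled every 1000 bp of sequence of at least 60% GC, an estimate whose own error is not in the intervals. A tandem repeat had at least 60% of bases equal to the base a fixed 5 to 150 bp on. Shares have exact binomial (Clopper-Pearson) intervals, densities exact Poisson ones, ratios exact conditional binomial ones and medians binomial-rank ones, at 95%. PCR reads are not independent molecules. Genes were named as hosts or neighbours of the 10 highest-fold, 5 widest, 5 highest-pileup and 5 farthest peaks, the 5 genes with most peaks and up to 4 genes of each list. A gene that the rule names is not reported here. ESPNP, FOXO1B, DNMT1, UHRF1, SETD1B, C19orf25, ZNF703, CCDC177, WNT11, KISS1R and the printed sequences' hosts were named after values were seen. No sequence was taken from chromosome 8, so the AGO2 peak was not eligible. Members and lists were chosen with earlier results of these data known. Python 3.11.15, numpy 2.4.6, pandas 2.3.3 and scipy 1.17.1 were used, with matplotlib 3.10.9 for figures, and scripts were tested on simulated data.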

Additional observations from a re-analysis of the deposited data

How the results depend on the processing

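No paired analysis was possible because the study has 1 library of each kind, and no replicate could be left out. The 13 alternatives gave 130 values, of which 68 stayed inside the counting interval or, for the number of peaks, within 1.5 times. The ratio of orphan to start-site density, pooled over annotation classes, was under 1 in 13 of 13.

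The number of peaks was 339 with an o/e of 0.75 or more, 1385 beyond 500 bp, 344 beyond 5 kb, 1633 with gene 5' ends alone as start sites, 39 at a −log10 q of 5 or more and 492 at a fold of 4 or more. Of peaks away from start sites, the share in CpG-island sequence was 4.63% with 100 bp to each side of the summit, 2.98% with 400 bp to each side, 3.17% at 55% GC with an o/e of 0.65 and 1.52% at an o/e of 0.75. It was 5.31% beyond 500 bp, 3.19% beyond 2 kb, 2.85% beyond 5 kb, 5.77% with gene 5' ends, 6.02% at the stricter q and 3.35% with peaks under 1 kb apart merged.

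Density per Mb, with repeated sequence included in all but the last value, was 97.01 at 55% GC, 169 beyond 500 bp, 114 beyond 2 kb, 92.1 beyond 5 kb, 173 with gene 5' ends, 6.25 at the stricter q, 78.9 at a fold of 4, 102 with merging and 188 in single-copy sequence. Its ratio to start-site density was 0.519, 0.845, 0.534, 0.440, 0.864, 0.366 and 0.522 under the former 7 of these, 0.658 with start sites of each annotated gene and 0.837 in single-copy sequence.

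The intergenic share was 16.1% beyond 500 bp, 27.2% beyond 2 kb, 34.01% beyond 5 kb, 10.9% with gene 5' ends and 17.9% at the stricter q. The coding share was 36.3% at an o/e of 0.75, 25.6% beyond 500 bp, 22.4% beyond 5 kb, 25.2% with gene 5' ends and 17.9% at the stricter q. The median fold was 4.31 beyond 500 bp, 4.34 with gene 5' ends, 6.36 at the stricter q and 4.64 at a fold of 4. The median width was 207 bp beyond 500 bp, 189.5 beyond 5 kb, 320.0 at the stricter q, 210.5 at a fold of 4 and 226 with merging. The terminal share was 33.1% beyond 500 bp, 32.9% with gene 5' ends and 46.2% at the stricter q. The share in islands that reach a start site was 13.3% with 100 bp to each side, 26.5% with 400 bp, 52.6% beyond 500 bp, 1.21% beyond 2 kb, 0% beyond 5 kb and 23.1% at the stricter q. Causes were not tested beyond the construction of each alternative, and pileups of 5 to 23 fragments limit each peak's own values.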
